A study of Mus musculus with 8 samples.

Results

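Livers of 2-week-old mice were compared with livers of 5-day-old mice, both from normal animals and from animals that lack Arid1a in hepatocytes. Arid1a encodes a DNA-binding subunit of the BAF complex, which moves nucleosomes. Of the 8 arrays in the study, the 5 with these ages in their titles were compared, 3 from 5 days and 2 from 2 weeks, with genotype as a covariate. The 5-day wild-type (WT) array held pooled RNA of 2 mice. The 5-day group also held 2 arrays of hepatocyte Arid1a knockout (KO) liver, and the 2-week group held 1 WT and 1 KO array, each of these 4 arrays from 1 mouse. All mice were labelled as male C57BL/6, the tissue was whole liver frozen after dissection, and the Cre line behind the deletion is not given in the sources used here. The 3 arrays of 1 month entered the estimate of spread, the choice of probe and the filter that decided which genes were tested. Each genotype had a single 2-week array. Within a genotype, a lone array was therefore assumed to vary like the pairs of KO arrays at 5 days and at 1 month. In the joint comparison the spread also took in the difference between the WT and KO changes. Its standard errors are therefore wide where the genotypes differ.

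At birth the liver is still a site of blood formation, and islands of red cell, platelet and granulocyte precursors lie between the hepatocytes. In the following weeks blood formation moves to the bone marrow, hepatocytes leave the cell cycle, fetal genes such as Afp and Igf2 are shut off, and the enzymes of amino acid, drug and bile acid metabolism are acquired. The young feed on milk, which is rich in fat and poor in carbohydrate, until solid food brings more starch and sugar.

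Values are log2 signals of 1 probe per gene after the 75th percentile of each array was aligned, and a change is 2 weeks minus 5 days with its standard error (SE) from limma. The 8 arrays had 55.8 to 62.5% of their probes well above background and no saturated probe. The levels of 2 sex-linked genes went against the label of male on 2 arrays: Xist, transcribed from the inactive X chromosome of females, read 12.13 in the 5-day WT pool and 13.43 in 5-day KO replicate 1, against 1.74 to 2.27 on the other 3 arrays. Ddx3y, a Y-linked gene, read 1.93 in 5-day KO replicate 1 and 9.42 to 11.08 on the other 4. Both genes were high in the pool. 5-day KO replicate 1 was also hybridised on another slide than the other 4 arrays, with the 1-month samples. It read high for skeletal muscle genes: all 21 measured were well above background and their summed signal was 49498, against 1339 to 1807 on the other 4 arrays. The muscle actin Acta1 was at 12.27 against 3.79 to 4.84. The 2-week KO liver read high for pancreatic acinar genes, with a summed signal of 33233 over 18 measured genes against 5859 to 12569 on the other 4. Whether these RNAs came from tissue carried over at dissection or from the liver itself was not tested. The part of sex, slide and possible carried-over tissue in single genes was not tested either, and the counts are given without these libraries below. Arid1a itself read 9.67 in the 5-day WT pool, 9.47 and 9.58 in 5-day KO, 9.35 in 2-week WT and 8.77 in 2-week KO. Where its probe lies relative to the deleted exons was not looked up here, so these levels do not check the labels.

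Large parts of the transcriptome moved between the ages. Of 17459 genes tested, 7315 passed an adjusted p of 0.05 (limma, Benjamini-Hochberg over all genes), which is 41.9%. The 3566 genes that were higher at 2 weeks made up 20.4% of all genes and the 3749 that were lower 21.5%, and the median change of all genes was 0.01. Among these, 397 rose (2.27% of all genes) and 647 fell (3.71%) at least 4-fold, and 133 rose (0.762%) and 141 fell (0.808%) at least 10-fold. A split by direction depends on the scaling: with each array centred on its median the counts were 4921 higher and 2690 lower, and the median change of all genes was 0.22. Without 5-day KO replicate 1, which leaves the 4 arrays of the shared slide and the 1-month arrays for the spread, 2953 genes were higher and 3108 lower. The 4 arrays of that slide alone gave 1954 and 2461. None of the 7315 genes was on the other side of 0, but they were chosen with these same arrays among others. Their signs are therefore no test of a slide effect. Without both 5-day KO replicate 1 and the 2-week KO, the counts were 1210 and 1623.

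The changes of the 2 genotypes were set side by side. WT liver had 1699 genes higher (9.73%) and 2108 lower (12.1%), together 21.8% of all genes. KO liver had 2251 higher (12.9%) and 2438 lower (14.0%), together 26.9%. The order of these counts depends on single arrays: without 5-day KO replicate 1 the counts were 2833 in WT and 1779 in KO, without 5-day KO replicate 2 they were 2833 and 2437, and without either 1-month KO array 2495 and 3253. Both genotypes passed for 2921 genes, which is 76.7% of the WT genes and 62.3% of the KO genes, and 2904 of these moved in the same direction. Across the 17459 genes, which are not independent replicates, the WT and KO changes correlated with r = 0.83, and 80.1% had the same sign. No gene passed a test of the difference between the changes (limma, smallest adjusted p = 0.128), while 1511 genes had an unadjusted p under 0.05. Leaving out the 2-week KO array leaves the WT change alone, and leaving out either WT array leaves the KO change alone, so that the values of the 2 genotypes side by side also show what each of these arrays does to a result.

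**Figure D1:**
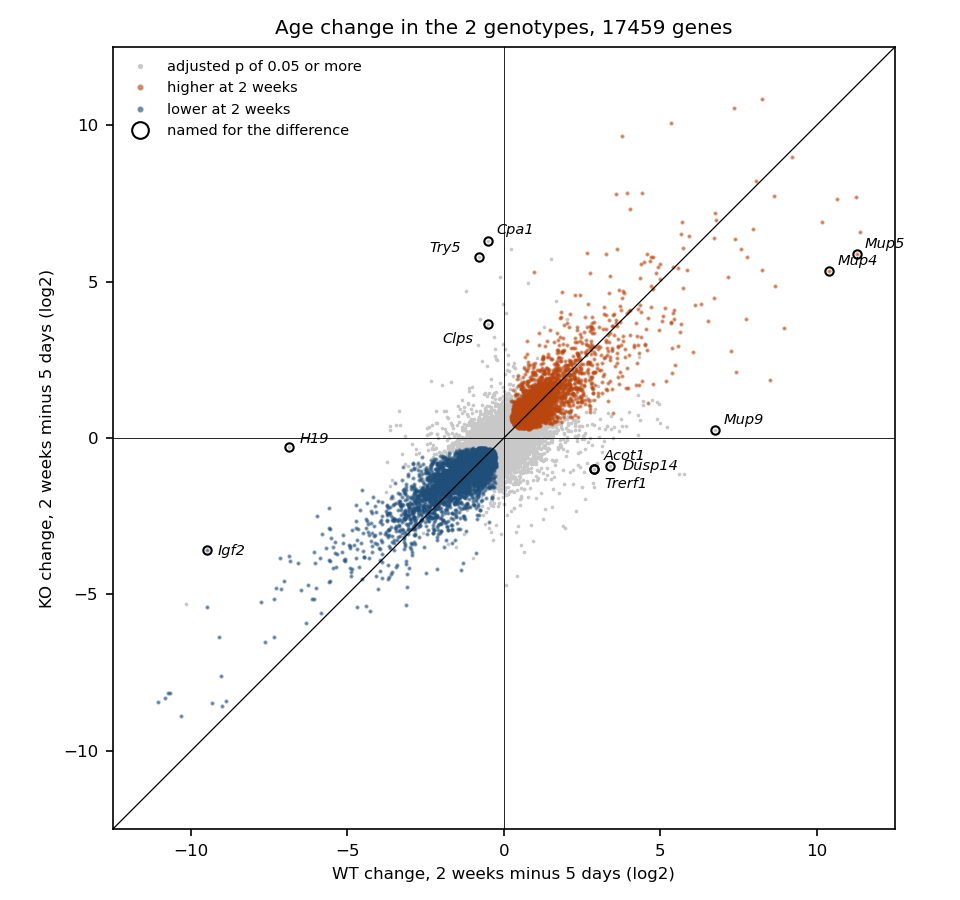
Each point is 1 of 17459 genes, with its change from 5 days to 2 weeks (log2) in WT liver on the horizontal axis and in KO liver on the vertical axis. The line marks equal changes, with r = 0.83 over all genes. Colours mark the genes that passed the joint comparison, which favours genes with the same sign in both, and the circled genes are among those with the smallest p for a difference between the genotypes.

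The largest falls belonged to a single gene family. The stefins and cystatins of family A are inhibitors of cysteine proteases that are made in quantity by young granulocytes, and their probes lay side by side on mouse chromosome 16 (mm9, from chr16:36122294-36122353 for Csta1 to chr16:36450693-36450752 for Stfa3). Stfa1 read 15.20 in the 5-day WT pool, 15.33 and 14.48 in 5-day KO, 4.37 in 2-week WT and 6.60 in 2-week KO. It fell by 9.38 ± 0.67 (SE, n = 3 arrays against 2, limma adjusted p = 0.00141). The 3 arrays of 5 days were all high, both of 2 weeks were near the lower end of the scale, and the groups were separated by more than 7 log2 units. Cstdc4, Stfa2l1, Stfa2 and Csta2 were not well above background on either 2-week array, so their falls are bounds of at least 544-fold, 678-fold, 469-fold and 404-fold. Cstdc5, Csta1 and Stfa3 fell by 9.26 ± 0.73, 9.22 ± 0.70 and 8.22 ± 0.44 and were still above background in both 2-week livers. The 2 probes of Csta1 ran from -9.22 to -1.92. The paralogs of this family are close in sequence and their probes may read each other. The family is therefore better taken as a single signal than as 8 genes.

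Camp and Ngp, proteins of neutrophil granules, and Afp and Dlk1 completed the 12 genes named for the largest falls, under the naming rule given below. Camp, which encodes the antimicrobial peptide cathelicidin, read 11.71, 12.18 and 10.88 on the 5-day arrays (WT pool, KO replicate 1, KO replicate 2) and 2.22 in 2-week WT and 6.14 in 2-week KO. Ngp read 11.84, 11.82 and 10.88 at 5 days, 4.09 in 2-week WT and 6.11 in 2-week KO. In both genes the 2-week KO liver lay above the 2-week WT liver, and both lay far below every 5-day liver.

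**Figure D2:**
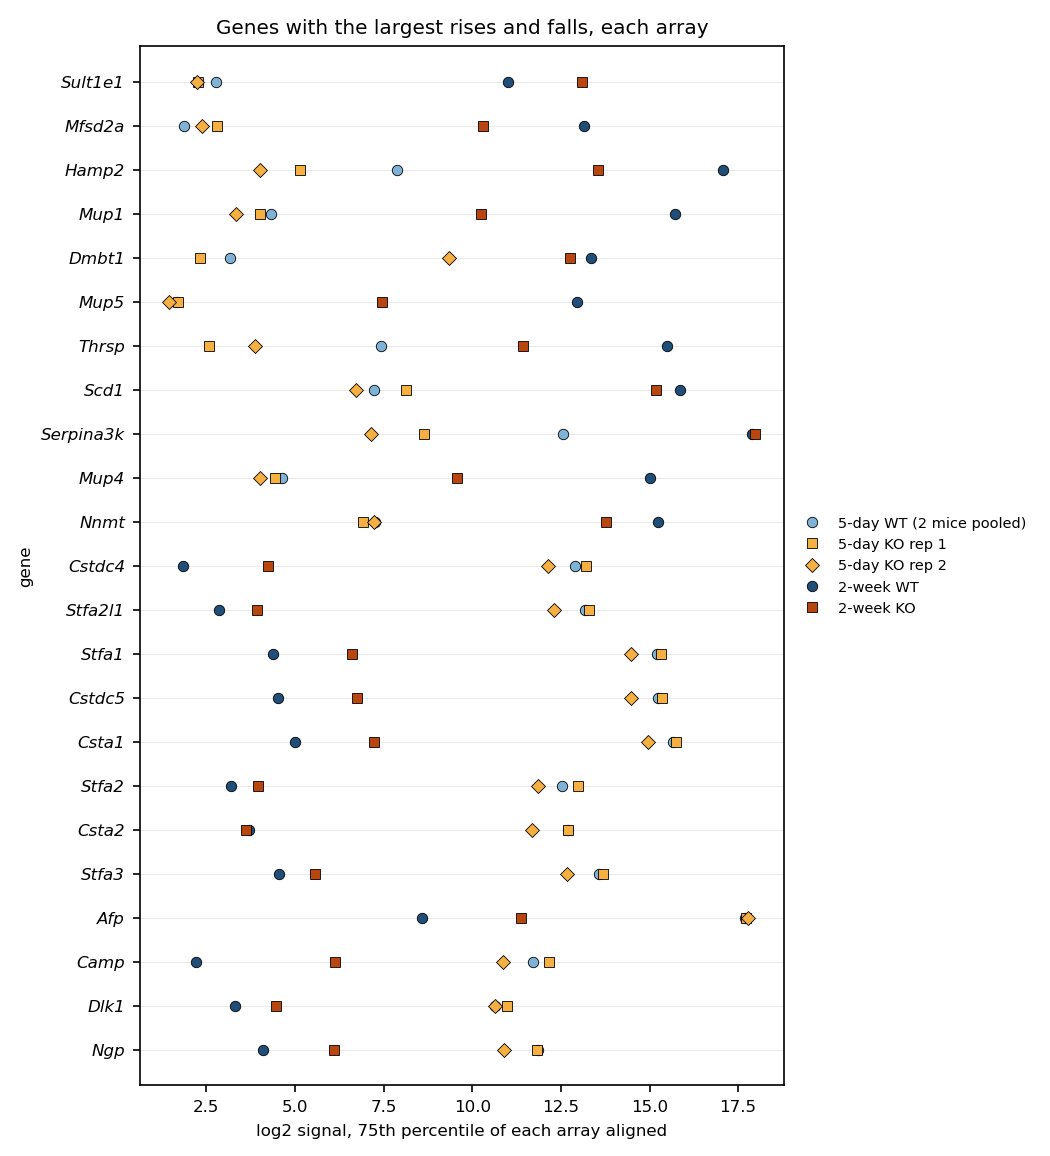
The log2 signal on each of the 5 arrays is shown. The genes are 11 of the 12 named for the largest rises (top) and the 12 named for the largest falls (bottom). The 5-day and 2-week points do not overlap for any of the 23 genes, as for 30.9% of all genes with the 2-week arrays higher and 31.9% with them lower, and the nearest approach is Dmbt1, at 9.35 in 5-day KO replicate 2 against 12.75 in 2-week KO.

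Genes of blood cell lineages fell in number, and the granulocyte list had the lowest median of the 35 gene lists examined. In bulk liver, fewer cells of a type and less RNA per cell cannot be told apart. Of 28 measured neutrophil and granulocyte genes, 26 fell and 1 rose, with a median change of -4.00 (WT -4.90, KO -3.59) beside 0.01 for all genes. The 1 that rose was Orm1, which is listed for neutrophil granules and is also a product of hepatocytes. S100a9, a calcium-binding protein that fills the neutrophil cytoplasm, read 16.89, 16.87 and 16.08 at 5 days, 9.88 in 2-week WT and 11.89 in 2-week KO. It fell by 5.62 ± 0.62 (adjusted p = 0.00283), and all 3 livers of 5 days lay more than 4 log2 units above both of 2 weeks. Mpo, the peroxidase of granulocyte precursors, went from 12.74, 12.59 and 11.68 to 6.17 and 8.14. Elane, Ms4a3 and Gfi1, which mark early granulocyte stages, were not well above background at 2 weeks and fell at least 12.7-fold, 19.8-fold and 5.14-fold. Only 16 of the 28 genes were well above background on each 2-week array, against 27 or 28 on the 5-day arrays.

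Red cell genes were the next large group, with 31 of 37 members lower, 1 higher and a median of -2.03 (WT -2.41, KO -1.75). The list spans membrane, haem and globin genes and the regulators of the lineage. Slc4a1, the anion exchanger of the red cell membrane, read 13.22, 12.26 and 12.48 at 5 days, 7.69 in 2-week WT and 9.16 in 2-week KO, and fell by 4.20 ± 0.53 (adjusted p = 0.00362). Ahsp, the chaperone of free alpha globin, read 13.42, 12.64 and 12.64 and then 6.56 and 8.87. The blood group gene Rhd and the transcriptional regulator Hemgn fell by 5.27 and 5.19. The membrane genes Epb42 and Rhag were not well above background at 2 weeks and fell at least 8.96-fold and 9.85-fold. Klf1, Tal1 and Epor, which control the lineage, fell by 2.45, 2.36 and 2.03. Hba-a1, the alpha globin that circulating red cells also carry, went from 17.13, 17.18 and 16.97 to 15.71 and 16.55 and fell by 0.91 ± 0.23 (adjusted p = 0.0272). The 2 alpha globin copies, Hba-a1 and Hba-a2, cannot be separated with confidence by such probes. In this list 19 of 37 members had a KO change higher than the WT change at an unadjusted p under 0.05, and none a lower one. Beside this, 4.77% of all genes had a higher KO change, and none passed after adjustment.

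Platelet and lymphocyte genes followed. Of 19 megakaryocyte and platelet genes, 18 fell (median -2.54, WT -2.88, KO -2.42). Itga2b, the platelet integrin subunit, read 7.14, 7.21 and 7.31 at 5 days and 4.59 and 4.88 at 2 weeks. Its 3 high and 2 low values lay close together within each age, and it fell by 2.45 ± 0.13 (adjusted p = 0.00111). The chemokine gene Ppbp fell by 4.68 ± 0.53 and the transcription factor gene Gfi1b at least 21.2-fold. B cell genes fell in 16 of 21 cases (median -2.41, WT -2.74, KO -2.28). Ms4a1, the gene of CD20, read 8.93, 9.03 and 8.68 and then 4.73 and 5.21. Genes of the surrogate light chain and of receptor rearrangement, Vpreb1, Vpreb3 and Rag1, are used by B cell precursors: Vpreb1 fell by 3.94 and Vpreb3 fell by 4.04, and Rag1, not well above background at 2 weeks, fell at least 6.82-fold. The heavy chain gene Ighm fell by 3.99. T and NK cell genes fell in 13 of 23 cases and 1 rose, Zap70 (1.65 ± 0.36), with a median of -1.23. The kinase gene Lck fell by 2.28, the receptor subunit gene Cd3d by 1.87 and the cytotoxic granule gene Nkg7 by 2.08.

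**Figure D3:**
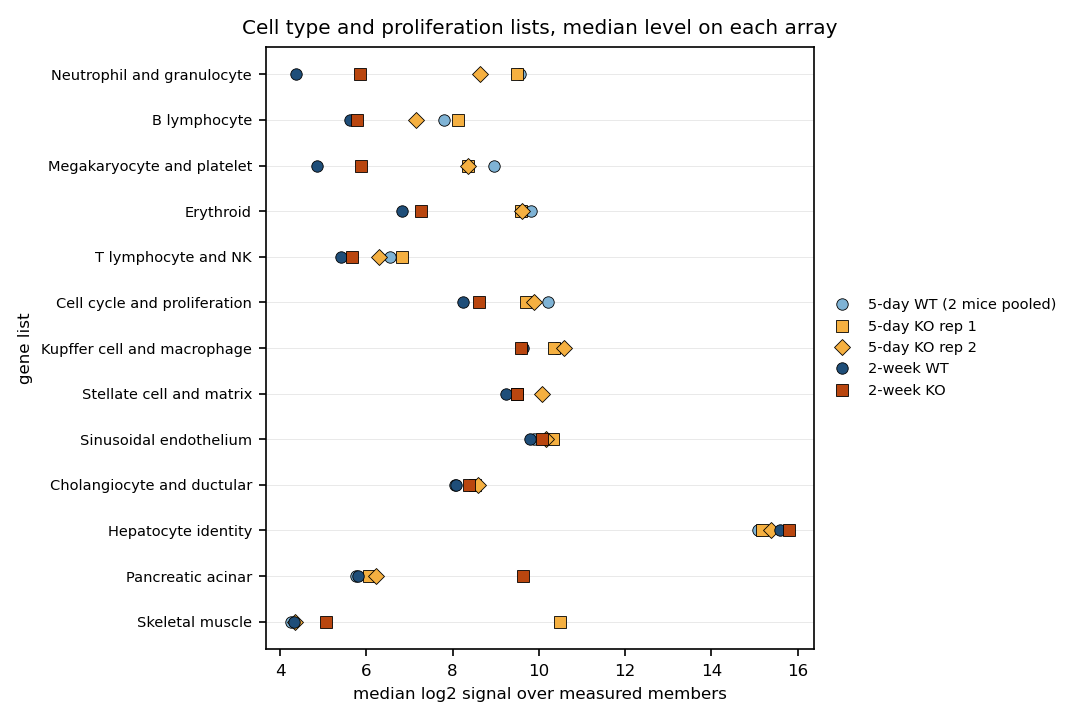
The median log2 signal over the measured members of 13 gene lists is shown for each array. The 5 blood cell lists, the cell cycle list and the Kupffer cell list have both 2-week arrays below all 5-day arrays, the pancreatic list stands apart in the 2-week KO and the muscle list in 5-day KO replicate 1.

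Genes of the resident cell types of the liver gave mixed results. Of 29 Kupffer cell and macrophage genes, 21 fell and 2 rose (median -0.93, WT -1.04, KO -0.80). Marco, a scavenger receptor, read 14.13, 14.29 and 14.04 at 5 days, 10.16 in 2-week WT and 11.13 in 2-week KO, and fell by 3.44 ± 0.32 (adjusted p = 0.00206). Spic, the transcription factor of iron-recycling macrophages, fell by 2.52 and Adgre1, the gene of F4/80, by 1.38. Clec4f, which is particular to Kupffer cells within the liver, read 12.38, 12.08 and 11.91 at 5 days and 12.08 and 12.21 at 2 weeks, with overlapping groups. Cd163, the receptor for haemoglobin bound to haptoglobin, rose by 1.27.

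Sinusoidal endothelial genes gave 10 falls and 4 rises among 27, together 51.9% beside 41.9% of all genes. Their median of -0.17 turned to 0.05 when arrays were centred on their median. The pan-endothelial genes Kdr, Cdh5 and Cldn5 fell by 0.84, 0.74 and 0.96, while Clec4g, a lectin of differentiated sinusoidal endothelium, and Wnt9b, a Wnt ligand, rose by 0.97 and 0.80. Rspo3, which amplifies Wnt signals around the central vein, fell by 0.91. Stellate cell and matrix genes gave 17 falls and 6 rises among 45, together 51.1% (median -0.45, WT -0.64, KO -0.16). The stellate cell genes Reln and Ngfr fell by 1.67 and fell by 1.60, Tgfb1 fell by 1.59, and Thbs1 fell at least 6.84-fold. Ccn2, a matrix protein and target of the Hippo pathway, moved the other way and rose by 2.62 ± 0.32. The fibrillar collagen genes Col1a1, Col1a2 and Col3a1 had changes of 0.15, -0.13 and 0.06 and did not pass. Of 26 cholangiocyte genes 5 rose and 7 fell, together a share close to the 41.9% of all genes. Krt19, the keratin of bile ducts, rose by 2.87 ± 0.31 from 7.84, 8.17 and 8.69 to 11.22 and 10.92. Sox9, a regulator of duct cells, had a change of -0.02 and did not pass.

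Most fetal liver genes and imprinted growth genes fell. Among 22 fetal and oncofetal genes, 15 fell and 1 rose (median -1.91, WT -2.20, KO -1.58). Afp, which encodes alpha-fetoprotein, a main serum protein of the fetus, and was read by a probe at chr5:90937781-90937840 (mm9), gave 17.69 in the 5-day WT pool, 17.71 and 17.77 in 5-day KO, 8.58 in 2-week WT and 11.39 in 2-week KO. The 5-day livers differed by less than 0.1 log2 units, and Afp fell by 7.54 ± 0.60 (adjusted p = 0.00164), with a change of -9.11 in WT and -6.35 in KO. Zbtb20, a repressor of Afp, was the 1 gene of the list that rose, by 1.00 ± 0.19 from 8.35, 8.59 and 8.59 to 9.74 and 9.30. The surface proteoglycan gene Gpc3 and the mRNA-binding protein gene Igf2bp2 fell by 2.14 and 2.19.

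Of 23 measured genes of the imprinted growth network 17 fell and none rose (median -2.45, WT -2.79, KO -1.46). Dlk1, a membrane protein of hepatoblasts, read 10.65, 10.98 and 10.65 at 5 days, 3.31 in 2-week WT (not above background) and 4.45 in 2-week KO, and fell by 6.78 ± 0.26 (adjusted p = 0.000962). The noncoding Meg3, transcribed from the same imprinted region, read 14.43, 14.04 and 13.74 and then 8.83 and 9.29, and fell by 5.03 ± 0.29. Rian and Mirg of that region were not well above background at 2 weeks and fell at least 9.91-fold and 11.1-fold. Peg3 and Plagl1, zinc finger genes expressed from the paternal copy, fell by 4.11 and 2.85. Mest fell by 2.84, the growth inhibitor Grb10 fell by 2.45 and the cell cycle inhibitor Cdkn1c fell by 2.07. Igf2, the fetal growth factor, read 15.91, 16.06 and 16.03 at 5 days, 6.42 in 2-week WT and 12.45 in 2-week KO. It fell by 6.12 ± 1.27 in the joint comparison (adjusted p = 0.0149), with a change of -9.49 in WT and -3.59 in KO. H19, the noncoding neighbour of Igf2, read 16.97, 16.67 and 16.84 at 5 days, 10.12 in 2-week WT and 16.46 in 2-week KO. It did not pass in the joint comparison (-3.10 ± 1.41, adjusted p = 0.135); the change was -6.85 in WT, which passed, and -0.29 in KO, which did not.

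In the growth hormone and insulin-like growth factor axis 2 of 19 genes rose and 6 fell, which together is a share close to the 41.9% of all genes. Igf1, the postnatal growth factor, read 14.69, 14.51 and 13.81 at 5 days and 15.68 and 15.51 at 2 weeks, a rise of 1.19 ± 0.24 (adjusted p = 0.014) that did not pass after quantile normalization (0.72, adjusted p = 0.0703) and was lost in 7 of 21 other settings in all, and its 4 probes ran from -0.39 to 1.19. The receptor Igf1r fell by 1.40 ± 0.13 and the binding protein Igfbp2 fell by 2.15 ± 0.23, from 16.25, 16.58 and 16.86 to 13.61 and 14.94. Ghr, the growth hormone receptor, had a change of 0.41 and did not pass.

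Proliferation genes fell together. Of 54 cell cycle genes 44 fell and none rose, with a median of -1.54 (WT -1.94, KO -1.28). WT liver alone had 38 falls and no rise, and KO liver 33 falls and 1 rise, Ccnd1. Mki67, the proliferation antigen, read 12.59, 12.27 and 12.42 at 5 days and 10.04 and 10.46 at 2 weeks, and fell by 2.17 ± 0.22 (adjusted p = 0.00232). The replication licensing genes Mcm6, Mcm5 and Cdt1 fell by 2.74, 2.36 and 2.36, the mitotic kinase gene Aurkb by 2.47 and the phosphatase gene Cdc25b, which activates mitotic entry, by 2.48. The kinase gene Ttk, not well above background at 2 weeks, fell at least 2.45-fold. The list holds genes of any dividing cell, so dividing blood precursors and dividing hepatocytes both enter it. Ccnd1, the cyclin of growth factor signalling, read 10.03, 9.32 and 9.01 at 5 days, 9.49 in 2-week WT and 10.19 in 2-week KO, with overlapping groups, and did not pass in the joint comparison (WT -0.54, KO 1.02).

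Promoters are shown for 3 of the cell cycle genes that fell, since cell cycle promoters are known for paired CCAAT boxes, bound by NF-Y, and the cell cycle homology element TTTGAA or TTCGAA. The RefSeq table used here (GRCm38.p6) held 39 promoters for 36 of the 44 genes, each from 250 bases before to 50 bases after the transcript start. CCAAT, on either strand, was in 82.1% of them beside 37.4% of all 32851 promoters, and TTTGAA or TTCGAA in 59.0% beside 19.2%. In the 3 sequences, 5′ to 3′ on the strand of the gene, capitals mark CCAAT and TTTGAA or TTCGAA and their reverse complements. The genes are Cdc25b (chr2:131186698-131186997, plus strand), Mki67 (chr7:135716330-135716629, minus strand) and Cdc45 (chr16:18811923-18812222, minus strand), the loading factor of the replicative helicase, which fell at least 2.95-fold.
Cdc25b: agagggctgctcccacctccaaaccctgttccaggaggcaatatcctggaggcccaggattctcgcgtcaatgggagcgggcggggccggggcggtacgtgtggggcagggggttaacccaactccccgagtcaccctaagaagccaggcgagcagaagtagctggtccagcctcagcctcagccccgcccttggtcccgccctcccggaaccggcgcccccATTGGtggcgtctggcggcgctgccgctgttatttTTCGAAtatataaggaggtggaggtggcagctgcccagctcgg
Mki67: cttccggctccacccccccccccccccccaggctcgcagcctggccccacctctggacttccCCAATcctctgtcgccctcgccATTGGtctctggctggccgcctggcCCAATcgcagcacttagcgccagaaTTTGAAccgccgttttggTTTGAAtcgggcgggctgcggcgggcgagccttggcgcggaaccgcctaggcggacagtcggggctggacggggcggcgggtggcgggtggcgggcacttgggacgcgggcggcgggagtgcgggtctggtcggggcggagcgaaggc
Cdc45: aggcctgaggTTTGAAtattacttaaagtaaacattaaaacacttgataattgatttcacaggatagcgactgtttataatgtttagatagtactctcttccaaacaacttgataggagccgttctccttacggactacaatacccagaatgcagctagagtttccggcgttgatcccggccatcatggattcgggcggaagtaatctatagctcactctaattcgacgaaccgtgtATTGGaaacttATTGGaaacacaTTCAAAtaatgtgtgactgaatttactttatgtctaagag
Mki67 held 3 CCAAT matches and 2 TTTGAA matches. A match is a description of the letters and not evidence that a factor was bound.

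The genes with the largest rises had diverse functions. Sult1e1, which sulfates and inactivates oestrogens, was not above background on any 5-day array and read 11.02 in 2-week WT and 13.08 in 2-week KO, a rise of at least 440-fold. Mfsd2a, a transporter of lysolipids with docosahexaenoic acid, was likewise dark at 5 days and read 13.15 and 10.29, at least 350-fold higher. Scd1, the desaturase that makes oleate, read 7.23, 8.13 and 6.73 at 5 days and 15.87 and 15.18 at 2 weeks, and Nnmt, which methylates nicotinamide, read 7.26, 6.92 and 7.23 and then 15.24 and 13.76. For both, the 5-day values lay together and both 2-week values lay more than 6 log2 units above them. Dmbt1, a scavenger receptor protein of ducts, read 3.17 and 2.33 in the 5-day WT pool and KO replicate 1, 9.35 in KO replicate 2, and 13.35 and 12.75 at 2 weeks. Its rise of 8.31 ± 2.11 (adjusted p = 0.0279) did not pass within the shared slide (adjusted p = 0.0518), with the 5 arrays alone (0.0503) or in either genotype alone (0.106 in WT and 0.161 in KO).

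Hepatocyte genes at large were already high at 5 days. Of 28 genes of hepatocyte identity 6 rose and 1 fell, together 25% beside 41.9% of all genes. Their median change was 0.24, beside a median level of 15.08 to 15.80 on the 5 arrays. Alb read 17.73, 17.89 and 17.88 at 5 days and 18.05 and 18.14 at 2 weeks and did not pass (0.28, adjusted p = 0.102). The transcription factor genes Hnf4a, Nr1h4 (the bile acid receptor FXR) and Cebpb rose by 1.19, 1.39 and 2.55. Apoc3, an inhibitor of lipoprotein lipase, read 13.15 in the 5-day WT pool but 9.80 and 8.78 in 5-day KO, and 17.07 and 17.13 at 2 weeks. It rose by 3.92 in WT and 7.83 in KO, and the joint rise was 6.16 ± 0.89 (adjusted p = 0.00530). The 2-week livers differed by less than 0.1 log2 units, and the 5-day WT pool lay more than 3 log2 units above both 5-day KO livers.

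**Figure D4:**
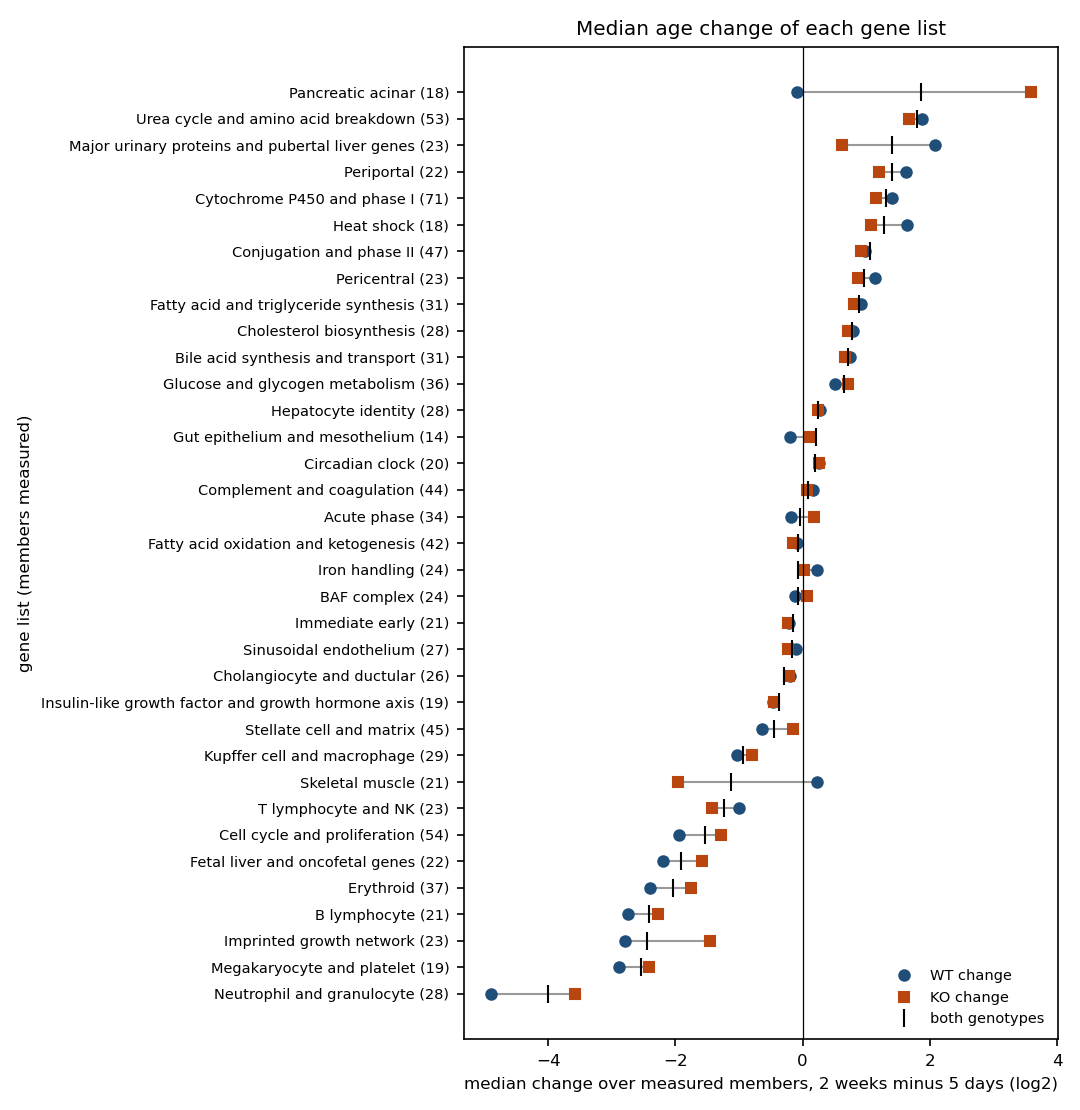
Median change from 5 days to 2 weeks (log2) over the measured members of each of 35 gene lists, in WT (circles), in KO (squares) and in the joint comparison (bars). Blood cell, imprinted, fetal and cell cycle lists lie at the bottom between -4.90 and -1.28, except the T and NK list at -1.01 in WT and -1.23 in the joint comparison, and amino acid, periportal and P450 lists near the top.

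Amino acid breakdown and the urea cycle rose most uniformly. Of 53 measured genes 46 rose and 1 fell, with a median of 1.79 (WT 1.88, KO 1.68). Every urea cycle gene measured passed upwards: Cps1 by 2.54, Otc by 1.49, Ass1 by 2.94, Asl by 2.83 and Arg1 by 3.13, together with Nags, which makes the activator of Cps1, by 2.11 and the ornithine carrier gene Slc25a15 by 3.24. Gpt, the cytosolic alanine aminotransferase, read 9.63, 10.18 and 9.79 at 5 days and 15.48 and 15.36 at 2 weeks. The 2 ages were 5 log2 units apart and the WT and KO livers of 2 weeks nearly equal (5.58 ± 0.19, adjusted p = 0.000962). Its mitochondrial counterpart Gpt2 rose by 4.19, the histidine ammonia lyase gene Hal by 3.37, the tyrosine aminotransferase gene Tat by 3.91 and Cth, which makes cysteine from cystathionine, by 2.91. Tdo2, which opens the tryptophan ring, read 11.07 in the 5-day WT pool, 8.25 and 7.80 in 5-day KO, and 14.33 and 13.92 at 2 weeks. Prodh, the proline dehydrogenase, ended apart: from 8.12, 7.85 and 7.36 it reached 14.83 in WT and 12.07 in KO. Prodh2, a hydroxyproline dehydrogenase gene, fell by 0.66.

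Both sides of the lobule gained enzymes. Of 22 periportal genes 15 rose and 3 fell (median 1.41), and of 23 pericentral genes 14 rose and 1 fell (median 0.96); 11 of the 15 periportal rises are also members of the urea cycle and amino acid list. The periportal P450 Cyp2f2 read 12.29, 12.79 and 12.38 at 5 days, 16.60 in 2-week WT and 15.29 in 2-week KO. Pericentral Glul, the glutamine synthetase, read 13.68, 13.66 and 13.53 and then 14.59 and 14.48, a rise of 0.89 ± 0.12 (adjusted p = 0.00485). Cyp1a2, a pericentral P450, rose by 2.90, and Notum, a Wnt inhibitor, by 1.45. Cyp2e1, a pericentral P450 that oxidises ethanol, was at 14.55 to 14.87 at 5 days and 15.77 and 15.03 at 2 weeks and did not pass (0.67, adjusted p = 0.0661). Axin2 and Lgr5, targets of Wnt signalling, had changes of -0.88 and -0.47 and did not pass.

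Cytochrome P450 and other phase I genes gave 46 rises and no fall among 71 measured, with a median of 1.31 (WT 1.40, KO 1.15). WT alone had 36 rises, and KO alone 27 rises and 1 fall. The pair Cyp2a4 and Cyp2a5, steroid and coumarin hydroxylases so alike that their probes may read both, read 9.66, 7.36 and 6.05 (Cyp2a4) at 5 days and 16.43 and 13.67 at 2 weeks. The 5-day livers spread over more than 3 log2 units with the WT pool highest, and the rise was 6.88 ± 0.47 (adjusted p = 0.00131). Cyp2d13 rose by 5.43, Fmo5 by 3.31, the retinaldehyde dehydrogenase gene Aldh1a1 by 4.40 and the retinoic acid hydroxylase gene Cyp26a1 by 4.51. Cyp3a11, a main drug-oxidising P450 of the adult, read 13.29, 13.55 and 13.67 at 5 days, 14.66 in 2-week WT and 13.97 in 2-week KO and did not pass (0.79, adjusted p = 0.0613). For 16 of the 71 genes the KO change was lower than the WT change at an unadjusted p under 0.05, and for 3 it was higher, beside 3.88% and 4.77% of all genes; none passed after adjustment.

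Conjugating enzymes followed, with 35 rises and 2 falls among 47 genes (median 1.05, WT 0.98, KO 0.92). Gstt3, a glutathione transferase, read 8.82, 8.56 and 8.37 at 5 days and 13.68 and 13.75 at 2 weeks (5.10 ± 0.17, adjusted p = 0.000962). Gstm2 and Gstm3 rose by 3.20 and 2.90 and Sult1d1, a sulfotransferase, by 2.68. Gclc, the catalytic subunit of glutathione synthesis, was 1 of the 2 that fell, by 1.39. Sult1c2 was the other, at -1.22.

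Single bile acid genes rose at both ends of the pathway. Of 31 measured genes 14 rose and 1 fell, together 48.4% beside 41.9% of all genes (median 0.72, WT 0.75, KO 0.67). Baat, which joins bile acids to taurine, had the smallest p of the list: it read 7.54, 6.17 and 6.22 at 5 days and 13.27 and 12.25 at 2 weeks, a rise of 5.92 ± 0.13 (adjusted p = 0.000471). Slc27a5, which activates bile acids for that step, rose by 1.82. Cyp7a1, the rate-limiting enzyme of bile acid synthesis, read 8.94, 9.39 and 9.81 and then 14.09 and 13.76, a rise of 4.59 ± 0.81 (adjusted p = 0.00902), and Cyp27a1 of the alternative pathway rose by 3.44. Cyp8b1, which sets the share of cholic acid, overlapped between the ages (8.85 to 10.48 against 10.67 and 10.19 at 2 weeks) and did not pass. Among carriers, the uptake transporter Slc10a1 rose by 1.46, Slco1a4 by 3.74 and the canalicular export pump Abcb11 by 0.97.

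The promoters of Cyp2c70, which makes the muricholic acids of the mouse, and of Cyp2a4 are shown as examples of the P450 and bile acid genes that rose. Of these, 47 of 60 had 57 promoters in the table. CAAAGTC, a core of the sites HNF4 is known to bind, was in 21.1% of them beside 4.44% of all promoters, and GTTAAT, which makes up a side of the HNF1 site, in 10.5% beside 7.10%, on either strand in each case. Capitals mark these motifs and their reverse complements in Cyp2c70 (chr19:40187237-40187536, minus strand) and Cyp2a4 (chr7:26306942-26307241, plus strand), both GRCm38.p6 and printed as before.
Cyp2c70: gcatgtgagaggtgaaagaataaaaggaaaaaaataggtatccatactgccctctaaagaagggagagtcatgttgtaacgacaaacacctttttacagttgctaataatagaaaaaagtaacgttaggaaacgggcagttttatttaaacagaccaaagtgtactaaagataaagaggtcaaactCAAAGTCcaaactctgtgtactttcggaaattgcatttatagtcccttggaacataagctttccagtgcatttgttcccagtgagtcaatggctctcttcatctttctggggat
Cyp2a4: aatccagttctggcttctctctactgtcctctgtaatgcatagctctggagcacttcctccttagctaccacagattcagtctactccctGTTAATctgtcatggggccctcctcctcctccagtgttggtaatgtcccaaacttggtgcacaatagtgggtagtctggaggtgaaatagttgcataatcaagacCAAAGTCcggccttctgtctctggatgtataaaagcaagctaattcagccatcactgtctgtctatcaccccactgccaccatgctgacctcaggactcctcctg
Cyp2c70 read 14.32, 14.08 and 14.34 at 5 days and 16.64 and 16.38 at 2 weeks, a rise of 2.23 ± 0.14 (adjusted p = 0.00122). The 5-day and 2-week values each lay within 0.3 log2 units.

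Most genes of lipid synthesis rose. Of 31 genes of fatty acid and triglyceride synthesis 18 rose and 3 fell (median 0.89, WT 0.91, KO 0.81). Thrsp, a lipogenic protein that responds to thyroid hormone, read 7.44 in the 5-day WT pool, 2.56 and 3.87 in 5-day KO, 15.49 in 2-week WT and 11.43 in 2-week KO. WT lay above KO at both ages, and the rise was nearly equal, 8.05 and 8.21. The fatty acid synthase gene Fasn rose by 3.78 ± 0.25, from 12.33, 11.86 and 11.95 to 15.53 and 16.11, the malic enzyme gene Me1 by 4.29 and the elongase gene Elovl6 by 3.13. Elovl2 and Elovl5, elongases of polyunsaturated fatty acids, fell by 0.75 and 0.70, and the lipid droplet gene Cidec by 1.36. Srebf1 and Pklr did not pass (0.89 and 0.72, adjusted p = 0.0581 and 0.0724).

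Fatty acid oxidation and ketogenesis gave 6 rises and 12 falls among 42 genes, together a share close to the 41.9% of all genes, and a median of -0.07 that was 0.15 with median centring and -0.42 after quantile normalization. Bdh1, which makes the ketone body hydroxybutyrate, fell by 1.55 ± 0.19, from 15.90, 15.72 and 16.05 to 14.06 and 14.55. Hadha and Hadhb, the 2 subunits of the trifunctional protein, fell by 0.85 and 0.96, and Cpt1a, the gate of mitochondrial fatty acid entry, by 0.68. Ppargc1a, a coactivator of mitochondrial genes, rose by 1.38.

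Cholesterol synthesis gave 19 rises and 1 fall among 28 genes (median 0.78, WT 0.79, KO 0.72). Mvd, of the mevalonate pathway, rose by 1.97, and Insig1, which holds back sterol-sensing factors, by 1.73. Hmgcs1, an early enzyme of the pathway, had -0.74 and did not pass, and its 3 probes ran from -0.77 to 1.35. Glucose genes gave 17 rises and 6 falls among 36 (median 0.66, WT 0.51, KO 0.71). The glycogen-targeting phosphatase subunit Ppp1r3b rose by 3.77, the glucose 6-phosphate carrier Slc37a4 by 2.18, and the fructokinase gene Khk by 2.53. The hexokinase genes Hk2 and Hk3 fell by 1.38 and fell by 1.54. Pkm, the pyruvate kinase of fetal and dividing cells, fell by 1.38. G6pc, the last step of glucose release, had -0.15 and did not pass.

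Major urinary proteins, the pheromone carriers that the mouse liver secretes under growth hormone and testosterone, were low at 5 days and stood higher in the 2-week WT than in the 2-week KO liver. With other genes of the pubertal liver they formed a list of 23 measured genes (median 1.41, WT 2.08, KO 0.61). Of these 11 rose and 1 fell, together 52.2% beside 41.9% of all genes. Mup1 read 4.32, 3.998 and 3.32 at 5 days, 15.72 in 2-week WT and 10.24 in 2-week KO. Mup4 read 4.62, 4.44 and 4.02, then 15.02 and 9.57, and Mup5, not above background at 5 days, read 12.95 and 7.45 at 2 weeks. All 3 were low at 5 days in either genotype and at 2 weeks stood more than 5 log2 units lower in KO than in WT. Their joint rises were 8.64 ± 1.05 for Mup1, 7.504 ± 1.09 for Mup4 and at least 122-fold for Mup5. Mup9 was above background in 2-week WT alone, at 8.64 against 1.71 to 2.28 elsewhere. The Mup genes are near-identical copies on chromosome 4 whose probes may read each other, so they count as a family signal. In this list 11 of 23 genes had a lower KO change at an unadjusted p under 0.05, beside 3.88% of all genes; none passed after adjustment.

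Plasma proteins of the acute phase split. Of 34 genes 14 rose and 6 fell, together 58.8% beside 41.9% of all genes. The median of -0.05 was 0.17 with median centring. Hamp, the iron hormone hepcidin, read 9.53, 8.04 and 7.23 at 5 days and 15.22 and 14.55 at 2 weeks, a rise of 6.39 ± 0.40 (adjusted p = 0.00120). Its paralog Hamp2 read 7.86, 5.13 and 4.01 and then 17.07 and 13.55, a rise of 9.08 ± 0.72. In both genes the WT pool was the highest of the 5-day livers and WT the higher of the 2-week livers. Serpina3k, a plasma protease inhibitor, read 12.56 in the 5-day WT pool, 8.63 and 7.15 in 5-day KO, and 17.89 and 17.97 at 2 weeks, so that the rise was 5.33 in WT and 10.08 in KO. Saa1, Saa2 and Saa4, serum amyloid A proteins, rose by 3.15, 5.14 and 3.36, and Orm2, an orosomucoid, by 6.72; members of these families may also read each other. The interleukin 1 receptor antagonist gene Il1rn fell by 3.39 ± 0.33, from 8.84, 9.36 and 9.62 to 5.12 and 6.34. In the iron list, which includes Hamp and Hamp2, 8 of 24 genes rose and 2 fell, together a share close to the 41.9% of all genes. Fth1, the ferritin heavy chain, rose by 0.72, and Tfrc, the transferrin receptor, had -0.53 and did not pass.

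Complement and coagulation genes gave 9 rises and 4 falls among 44, together 29.5% beside 41.9% of all genes. Changes in the list ran from -0.88 to 2.53, and the median of 0.08 turned to -0.30 after quantile normalization and in the deposited matrix. C9 and C8b of the membrane attack complex rose by 1.70 and 1.44, and C4bp, an inhibitor of complement, by 2.53. The fibrinogen genes Fga, Fgb and Fgg had -0.23, 0.26 and 0.09 and did not pass.

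Heat shock genes rose with few exceptions, 15 of 18, with a median of 1.28 (WT 1.64, KO 1.07). Hsph1, a chaperone of the HSP110 family, read 8.56, 8.81 and 9.05 at 5 days and 12.94 and 12.97 at 2 weeks, a rise of 4.18 ± 0.27 (adjusted p = 0.00123). Dnaja1, Bag3 and Hspa5, the chaperone of the endoplasmic reticulum, rose by 2.29, 2.26 and 1.69. Hspa1a, the inducible HSP70, read 5.92, 6.803 and 6.64, then 10.17 in WT and 9.11 in KO. Immediate early genes, which respond within minutes to handling, gave 3 rises and 4 falls among 21, together 33.3% beside 41.9% of all genes. Dusp1 and Zfp36 rose by 2.34 and 2.16, and Fos had 0.52 and did not pass. Klf6 fell by 0.81, and Ier3, not well above background at 2 weeks, fell at least 3.86-fold.

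Of 20 clock genes 7 rose and 2 fell (median 0.19), together a share close to the 41.9% of all genes. Per1 and Per2, repressors of the clock, rose by 1.71 and 1.90, and Cry1, not well above background at 5 days, rose at least 2.74-fold. Arntl, the gene of the activator BMAL1, fell by 1.55 ± 0.14, from 9.43, 9.55 and 9.57 to 8.06 and 7.87. Ciart, a further repressor, was not above background on any 5-day array and read 7.47 and 7.26 at 2 weeks, at least 17.1-fold higher. The output gene Usp2 rose by 4.31. The hour of dissection is not given in the labels, so age and time of day cannot be told apart here.

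Among 24 genes of BAF complexes 3 rose and 5 fell, together 33.3% beside 41.9% of all genes. The median was -0.08, and 0.14 with median centring. Arid1a fell by 0.57 ± 0.15 (adjusted p = 0.0322), a change of -0.31 in WT and -0.76 in KO that did not pass with median centring (-0.35, adjusted p = 0.162) and was lost in 11 of 21 other settings in all. Smarcc1, a scaffold subunit, fell by 0.80, and Smarcd2, a subunit used in granulocyte maturation, rose by 1.24. The paralog Arid1b had -0.18 and did not pass.

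Most of the genes with the smallest p for a difference between the genotypes were of 3 kinds, and none passed after adjustment. Igf2 and H19 were higher in the 2-week KO than in the 2-week WT, with differences between the changes of 5.90 ± 0.25 and 6.56 ± 0.33 (adjusted p = 0.128 for both). The pancreatic acinar genes Cpa1, Try5 and Clps differed by 6.82, 6.58 and 4.13, in the library that carried 33233 of summed acinar signal. With that library left out their changes, which are then those of WT, were -0.51, -0.78 and -0.50, and all but Try5 were not well above background in the 2-week WT. Mup5, Mup4 and Mup9 were lower in KO by 5.40, 5.06 and 6.51 (adjusted p = 0.128, 0.131 and 0.154), together with Trerf1, Acot1 and Dusp14. Among the 5-day and 2-week arrays, Dusp14 was well above background in 2-week WT alone. Trerf1 was so only there and in 5-day KO replicate 2, and its 3 probes ran from -1.41 to 0.66 in the joint comparison. Acot1, a thioesterase of fatty acid oxidation, read 9.86 in the 5-day WT pool, 12.42 and 12.78 in 5-day KO, 12.73 in 2-week WT and 11.62 in 2-week KO. For Acot1 the 5-day groups differed by more than the 2-week livers did. Afp was next in kind, 2.76 ± 0.26 less of a fall in KO (adjusted p = 0.194). With the spread estimated against mean signal and robustly, 7 genes passed the difference test, among them Igf2 (adjusted p = 0.0138), H19 (0.0146), Mup5 (0.0153), Mup4 (0.0401) and Try5 (0.0440).

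**Figure D5:**
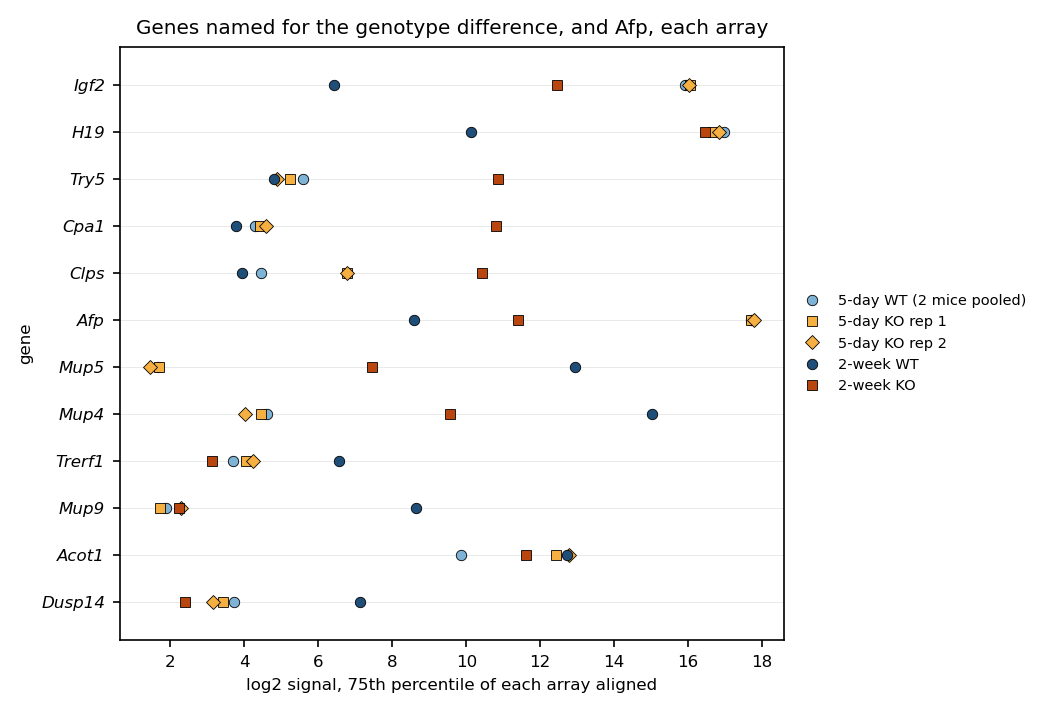
The log2 signal on each of the 5 arrays for 11 of the 12 genes with the smallest p for the difference between genotypes and for Afp. Igf2, H19 and Afp are higher in the 2-week KO than in the 2-week WT, the Mup genes lower, and the 3 pancreatic genes are high in the 2-week KO alone.

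Markers of tissues next to the liver were examined last. Of 18 measured acinar genes 3 rose and 1 fell in the joint comparison, with a median of 1.86 that was -0.08 in WT and 3.59 in KO. Reg1, a regenerating protein of the pancreas, was high in both 2-week livers (9.95 and 10.64) against 2.56, 2.28 and 6.30 at 5 days. Pnliprp1, a lipase gene of this list, went the other way, from 12.72, 12.89 and 13.27 to 9.003 and 10.68. Of 21 muscle genes 2 fell, and the median of -1.13 was 0.40 without 5-day KO replicate 1. The other medians of the 35 lists moved by at most 0.29 when that replicate was left out. Of 14 genes of gut epithelium and mesothelium 4 rose and 3 fell, together 50% beside 41.9% of all genes. Tff3, a mucosal trefoil peptide, read 9.22, 6.61 and 8.33 at 5 days, 13.01 in 2-week WT and 17.12 in 2-week KO, while Fabp2, the fatty acid binding protein of enterocytes, fell from 15.35, 15.88 and 15.89 to 13.96 and 14.56.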

How the data were processed

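RNA from whole liver was labelled with Cy3 and hybridised to single-colour Agilent mouse arrays. Per the file headers, the authors' deposited processed signal is an intensity with spatial and multiplicative detrending and no local background subtraction, from Feature Extraction 10.7.3.1 with probe positions on mm9. The deposited matrix holds log2 values whose columns share nearly the same distribution (largest gap between sorted columns 0.0081). It served as an alternative, and each of its columns matched its array (r of at least 0.9989). Of 41174 probes, 41092 were kept. RefSeq named 33574, and 26239 passed a filter that asks for a signal well above background on 2 or more arrays, those of 1 month included. The brightest probe stood for a gene, and 259 of the 2716 called genes with several probes had a probe on the other side of 0.

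Log2 intensity minus each array's 75th percentile was fitted with limma 3.58.1 in R 4.3.3, with terms for age, for genotype in the young arrays and for genotype at 1 month (3 residual degrees of freedom). WT and KO changes came from a fit of 6 groups (2 residual degrees of freedom), and p-values were adjusted by Benjamini-Hochberg over 17459 genes. The fits were tested on simulated data. A fold against a group not well above background is a bound, from each array's lowest signal well above background or the probe's own if higher; 624 of the lower and 130 of the higher genes were of this kind. Genes were named by size of change (12 a direction), by p for the genotype difference (6 a direction) and by p within each list (4); further list members were chosen after their values were seen. Some genes are not reported here. The comparison and the gene lists were chosen with earlier results of these data known. The 35 lists were written from general knowledge, with 1138 entries, 981 genes measured and 64 in more than 1 list. No matrix column was unmapped (0). The number of arrays limits the precision.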

Additional observations from a re-analysis of the deposited data

Results flagged for a closer look

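For 4 gene lists the median change had one sign in WT and the opposite sign in KO against each 5-day KO replicate, and the difference was not tested for any of them. The pancreatic acinar list had a median change of -0.0826 in WT and 3.59 in KO, where the KO value is that of the library with the high acinar signal. The gut epithelium and mesothelium list had -0.199 in WT and 0.114 in KO. The acute phase list had -0.189 in WT and 0.177 in KO, and the BAF complex list -0.114 in WT and 0.0671 in KO. The muscle list also had opposite signs, 0.22 in WT and -1.96 in KO, but its KO median was -3.94 against 5-day KO replicate 1 and 0.54 against replicate 2. The WT value rests on 1 pooled array and 1 mouse, and the KO value on 2 mice and 1 mouse.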

How the results depend on the processing

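No paired analysis was possible because the livers of 5 days and of 2 weeks came from different mice. Beside 3566 genes higher and 3749 lower, leaving out 1 array gave 1699 to 3566 and 2108 to 3749, the lowest without the 2-week KO. The shared slide alone gave 1954 and 2461, and 1210 and 1623 remained without 5-day KO replicate 1 and the 2-week KO, an alternative chosen after seeing the data. Counts for WT (3807) were 2480 without the filter and 2495 to 3807 when 1 array was left out, lowest without either 1-month KO array. Counts for KO (4689) were 2932 without the filter, 1779 with the slide as a block, and 1779 to 4689 when 1 array was left out, lowest without 5-day KO replicate 1. Genes that differed between genotypes numbered 0 as reported, 23 with median centring, 7 with the trended and robust spread and 17 with the repaired background below. Quantile normalization gave 3216 higher and 3812 lower, and the deposited matrix 3222 and 3795.

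The normexp background, as planned, gave 5 higher and 16 lower genes (28 in WT, 14 in KO), and spots with flagged local backgrounds read far above their neighbours on some arrays. With those backgrounds replaced by the array's median, an alternative chosen after seeing the data, 3943 genes were higher and 3240 lower. Under the planned form the sign turned for Epb42 (0.0805), Sptb (0.39), Rspo3 (0.99), Pygm (1.08), Ier3 (0.75), Aqp7 (0.17), Susd4 (0.25), Aco1 (-0.0025), Fth1 (-0.24), Ss18 (-0.20), Acot1 (-0.22) and for the genotype differences of Trerf1 (1.04) and Dusp14 (0.97). It also turned for the medians of T and NK (0.51), hepatocyte (-0.68), cholesterol (-0.0397), glucose (-0.13), complement (-0.85) and clock genes (-0.22).

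The medians of complement genes (-0.30 with quantile normalization and in the deposited matrix) and endothelial genes (0.0513 with median centring) turned too. Leaving out 1 array gave -0.78 to 5.80 for Try5, -0.51 to 6.31 for Cpa1 and -0.50 to 3.64 for Clps, below 0 without the 2-week KO and also with 5-day KO replicate 1 left out as well. It gave -1.004 to 2.89 for Trerf1, -0.98 to 2.87 for Acot1 and -0.88 to 3.39 for Dusp14, below 0 without either WT array, and Trerf1 had -0.67 with the mean of its probes. The cause of these turns was not tested.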
